A study of Mus musculus with 2 samples.

Results

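The liver makes most of the insulin-like growth factor 1 (IGF1) in the circulation, and 10 genes of this system were followed in mouse liver upon fasting and feeding. They were the hormone itself (Igf1), a partner of its circulating complex (Igfals), 5 binding proteins (Igfbp1, Igfbp2, Igfbp3, Igfbp4 and Igfbp7), the growth hormone receptor (Ghr) and 2 feedback inhibitors of growth hormone signalling (Socs2 and Cish). A gene was included when a probe of the array, controls excepted, carried a transcript identifier of that gene. All 10 were found among the 20652 genes named on the array, through 17 of the 39402 probe sequences, and 16346 genes had a signal well above background on at least 1 array.

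The arrays were made to learn which hepatic genes respond to food, so that these could be set beside the genes that respond to thyroid hormone. The fasting group consisted of male mice after an overnight fast, given as 16 h in the sample description and as 14 to 16 h in the treatment protocol. The feeding group also consisted of male mice. Its sample description calls it fed ad libitum, while the treatment protocol has it fed after the fast. The text of the study also describes these mice as fasted and then fed, so only the sample description differs. No genetic alteration or drug is named for either group, and the labels give neither strain nor age; the methods of the study name young adult C57BL/6J males for its mouse work in general. RNA from the livers of 3 mice was pooled in each group and hybridised to 1 array, so no replicate checks a difference between them, the spread between mice cannot be seen, and no p-value is given.

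IGF1 is made by hepatocytes when growth hormone binds its receptor and activates the kinase JAK2 and the transcription factor STAT5. In blood most IGF1 is held in a ternary complex with IGFBP3 or IGFBP5 and the acid-labile subunit, the product of Igfals, while the smaller binding proteins carry IGF1 in short-lived binary complexes. IGFBP1 is known as the acutely regulated binding protein of the liver: insulin represses its gene, and FoxO factors, glucagon and glucocorticoids raise it. SOCS2 and CIS, the product of Cish, are induced by STAT5 and restrain the receptor.

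Of these genes, Igfbp1 was 20.05-fold lower upon feeding than upon fasting and Igfals was 2.42-fold higher. The remaining 8 genes changed by less than 2-fold, the threshold of the study, although Socs2 was at 1.98-fold lower. Igf1 and Ghr, the hormone and the receptor at the head of the system, had changes of 0.13 and −0.07 on the log2 scale with their brightest probes. Signals here are background-subtracted intensities that were quantile normalized between both arrays, and a change is the log2 of feeding over fasting. The signal of one probe cannot be set against that of another, since probes bind with different strength.

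**Figure D1:**
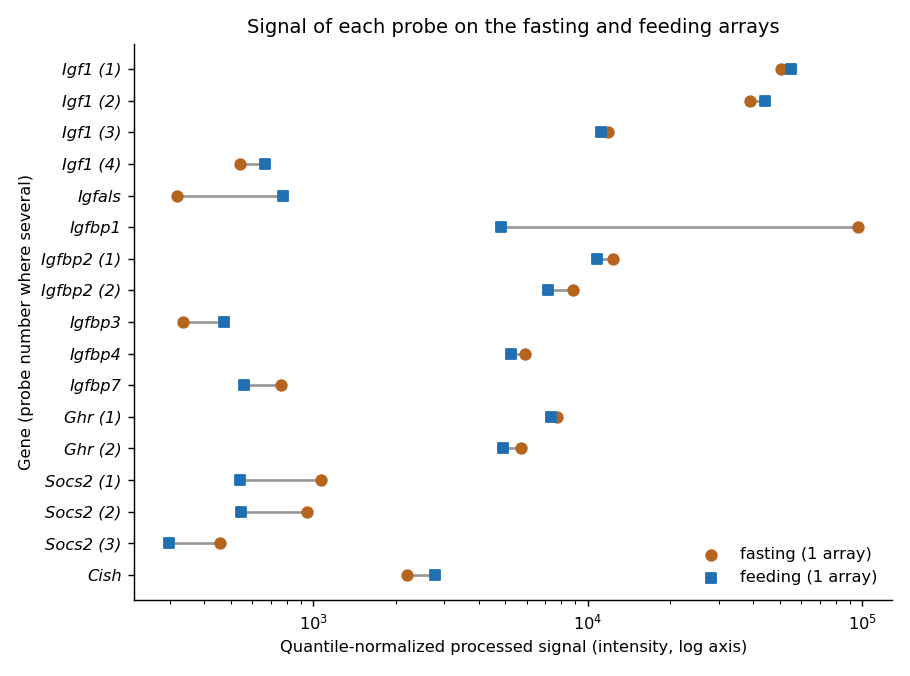
Quantile-normalized processed signal (log axis) of each of the 17 probes of the 10 genes on the fasting array (circles) and the feeding array (squares), 1 array of 3 pooled livers each, with a line joining the 2 values of a probe. The line of Igfbp1, from 96454 to 4811, is the longest, and only the horizontal distance within a row is comparable.

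In all, 1 of the 10 genes was at least 2-fold higher, where 3.29% of the 16346 genes measured were, and 1 of the 10 was at least 2-fold lower, where 4.62% were. In either direction this made 2 of 10 against 7.91% of all genes, a count too near the background to be read as a property of the genes as a group. The 16346 include 1147 genes without a value, which could not be called. The median change of the 10 genes was −0.12, with 4 above 0 and 6 below, whereas the median over all genes measured was 0.01. With the arrays scaled by their medians, which moves the median of all genes by 0.11, the median of the 10 became 0.08 and 3 were below 0, so the group as a whole had no settled direction. All 17 probes were well above background on both arrays, and none of their 26 spots per array was an outlier or saturated.

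The error on the array was taken from 2 sources. The SD of a difference between spots that carry the same probe was 0.10 on the log2 scale among the brightest of 3 equal groups of genes and 0.14 in the middle group, from 121 and 111 replicated probes. The error that the scanner software attaches to each spot came to 0.20 for the difference of every member. A change beyond 2 such scanner errors was seen for 5 of the 10 genes (Igfbp1, Igfals, Socs2, Igfbp3 and Igfbp7). Among the 14515 genes well above background on both arrays 32.9% passed. With the arrays scaled by their medians Igfbp7 was at −0.34, within 2 such errors, and Cish at 0.54, beyond them. Both measures cover the array alone and leave out the spread between mice.

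**Figure D2:**
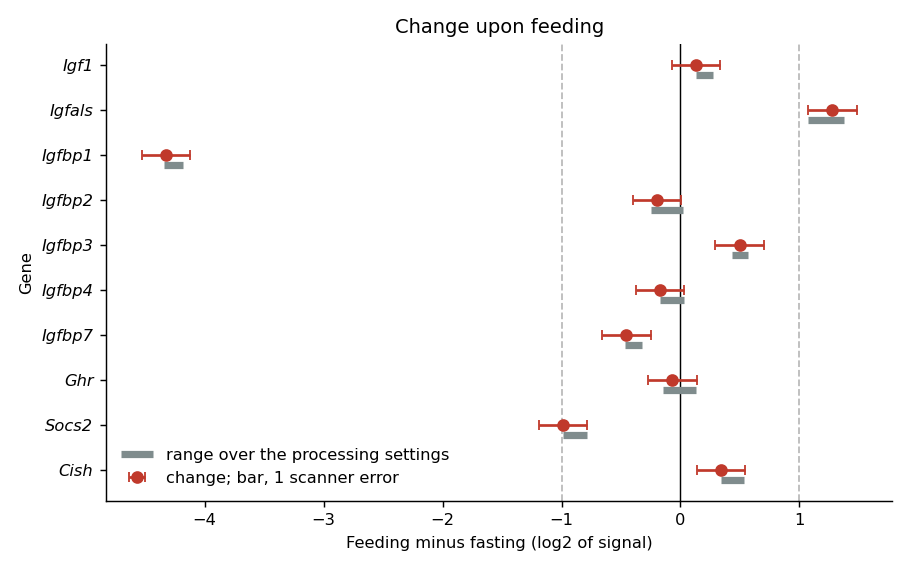
Change of each gene upon feeding (log2 of normalized signal, feeding minus fasting; circles), with bars of 1 scanner error and, below each, a grey band for the range over the processing settings. Dashed lines mark 2-fold; Igfbp1 at −4.33 and Igfals at 1.28 lie beyond them, while the bands of Igfbp2, Igfbp4 and Ghr cross 0.

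Igfbp1, whose protein is known to rise in plasma during fasting, had the largest change of the 10 genes. Its probe read a normalized signal of 96454 on the fasting array and 4811 on the feeding array. The change of −4.33 was 45.5 times the SD between replicate spots of similar brightness. Only 0.0612% of the genes measured had a lower change, which put Igfbp1 at rank 11 among the decreases. Across the alternative settings the change stayed between −4.34 and −4.18. Its signal on the feeding array was still well above background.

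The promoter of Igfbp1 is shown because its gene had the largest change of the 10 and because it holds the core letters of the insulin response element, CAAAACA, the element through which FoxO factors are known to act on this gene. The stretch covers the 150 bases before the RefSeq transcription start, at chr11:7197637-7197786 on the plus strand of GRCm38.p6, and the capitals mark the core, from −108 to −102.
Igfbp1: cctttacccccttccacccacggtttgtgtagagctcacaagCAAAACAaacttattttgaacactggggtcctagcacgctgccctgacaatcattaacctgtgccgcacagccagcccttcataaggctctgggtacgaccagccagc
These letters, read as CAAAACA or as TGTTTTG on the other strand, were found in 1 of the 13 promoter windows of the members and in 6.28% of all 32851 windows of 300 bases. A match of letters is a description and does not show that a factor binds there.

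The other 4 binding proteins all changed by less than 2-fold. Igfbp2, the second major binding protein of adult liver, read 12391 upon fasting and 10800 upon feeding with one probe and 8867 and 7179 with the other, changes of −0.20 and −0.30. Igfbp4, an inhibitory binding protein cleaved by pappalysins, read 5902 upon fasting and 5239 upon feeding, a change of −0.17. Both lay within 2 scanner errors, and with the arrays scaled by their medians the brighter Igfbp2 probe turned to 0.02 and Igfbp4 to 0.03, so no direction can be given for either.

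Igfbp3, the main carrier of IGF1 in the ternary complex, read 335.9 upon fasting and 474.2 upon feeding. The local background around its spot was 43 on the fasting array and 21.5 on the feeding array, a difference whose part was not tested. The change of Igfbp3 was 0.50, or 1.41-fold, in the opposite direction to that of Igfbp1. It stayed between 0.43 and 0.57 over the settings. The 2 genes are neighbours on chromosome 11: in the RefSeq annotation Igfbp3 is the next protein-coding gene after Igfbp1, with Adcy1 on the other side of Igfbp1 and Tns3 beyond Igfbp3. Igfbp7, which binds IGF1 weakly and is made mostly by vascular and stellate cells, read 765.2 upon fasting and 558.0 upon feeding, a change of −0.46 with a range of −0.46 to −0.32.

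Set against the other 4 binding proteins, whose changes had a median of −0.19 and ranged from −0.46 for Igfbp7 to 0.50 for Igfbp3, Igfbp1 differed by −4.14 on the log2 scale, a 17.6-fold difference of changes. The smallest distance, to Igfbp7, was −3.87 and the largest, to Igfbp3, was −4.82. Each of these distances was many times the scanner error, and none can be tested with 1 array per group.

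**Figure D3:**
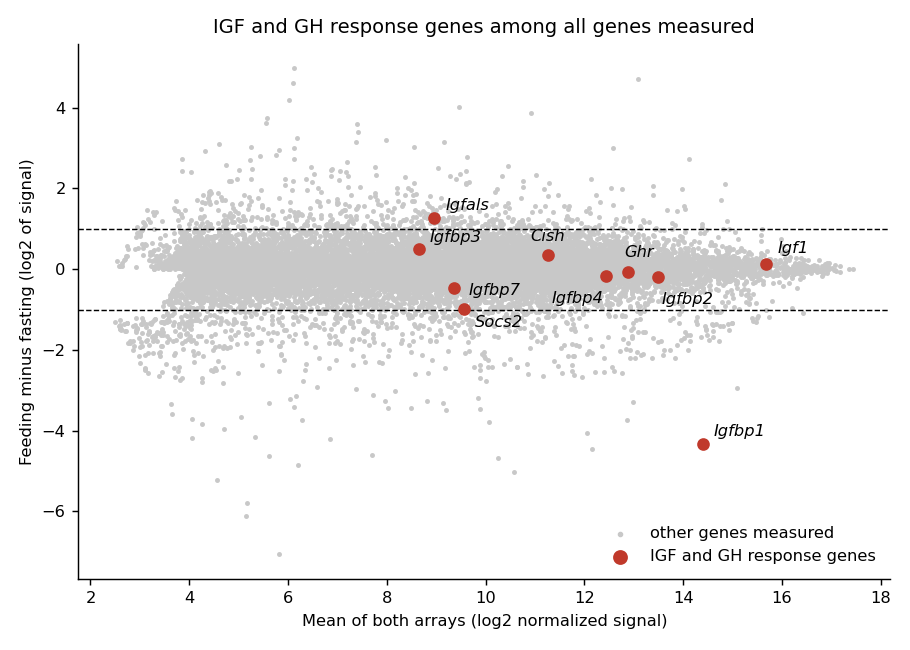
Change upon feeding (log2 of normalized signal, feeding minus fasting) against the mean log2 normalized signal of both arrays for all genes with a measured change (grey) and for the 10 IGF and growth hormone response genes (red). Dashed lines mark 2-fold, and Igfbp1 at −4.33 lies far below the other 9, of which 7 lie between −0.46 and 0.50.

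The genes whose change was most like that of Igfbp1, by distance on the log2 scale over these 2 arrays and among genes well above background on both, were Lpin2 (−4.20), Mfsd2a (−4.45), Ctcflos (−4.15) and Trp53inp1 (−4.06). Lpin2 encodes a phosphatidate phosphatase, and its probe read a processed signal of 522.6 upon fasting and 25.3 upon feeding. Mfsd2a encodes a transporter of lysophosphatidylcholine and went from 21517 to 937. Trp53inp1, a stress-response gene, went from 17317 to 1008. With 2 arrays, likeness means a change of like size and nothing more.

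Igf1 was represented by 4 probes that were read from the same transcript record. The brightest had a normalized signal of 50379 upon fasting and 55129 upon feeding, a change of 0.13, and the next read 39044 and 44052, a change of 0.17. The third read 11871 and 11176, a change of −0.09, and the dimmest read 541.2 and 668.8, a change of 0.31. All 4 changes were within 2 scanner errors of 0, and the third probe turned to 0.02 and 0.15 when the arrays were scaled by their 75th percentiles or by their medians.

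Igfals, the acid-labile subunit that extends the life of IGF1 in blood, was the only one of the 10 genes past 2-fold upward. Its probe read 319.9 upon fasting and 775.2 upon feeding, a change of 1.28 that was 9.38 times the SD between replicate spots, with 1.69% of the genes measured having a higher change. Over the settings it stayed between 1.07 and 1.37. The local background around its spot was 44 on the fasting array and 22 on the feeding array, and its part in the result was not tested. The spot of Cish had a like difference, with 46 and 21, as did that of Igfbp3.

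Ghr, the receptor through which growth hormone acts on hepatocytes, read 7717 upon fasting and 7357 upon feeding with one probe and 5689 and 4895 with the other. The changes of −0.07 and −0.22 lay within 2 scanner errors, and the first turned to 0.01 and 0.13 when the arrays were scaled by their 75th percentiles or by their medians.

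The 2 feedback inhibitors gave values of opposite sign. Socs2 was measured by 3 probes, all lower upon feeding, with changes of −0.99, −0.79 and −0.62 in order of brightness. The probe with −0.79 was spotted 10 times on each array, which gives the only within-array replicates among the 10 genes. Its 10 spots had processed signals from 957 to 1014 with a median of 976 upon fasting, and from 487 to 553 with a median of 530 upon feeding. The SD of these spots was 22.3 upon fasting and 25.8 upon feeding. They are spots of 1 pooled sample and not replicates of the condition, and their signals are those before normalization. Cish, in contrast, read 2194 upon fasting and 2775 upon feeding, a change of 0.34 that was within 2 scanner errors. It ranged from 0.34 to 0.54 over the settings, and the upper end lies beyond 2 scanner errors.

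**Figure D4:**
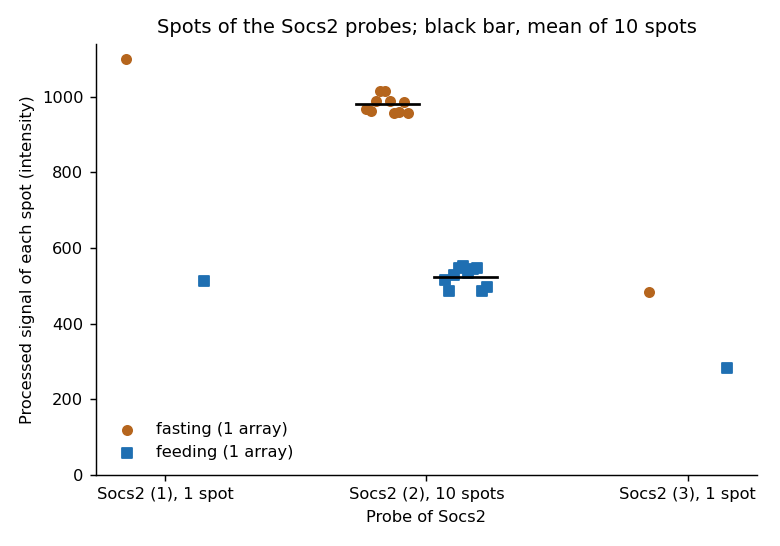
Processed signal (intensity before normalization) of every spot of the 3 Socs2 probes on the fasting array (circles) and the feeding array (squares), numbered by brightness, with black bars for the mean of the 10 spots of the second probe. The 10 spots of the second probe had a median of 976 upon fasting and 530 upon feeding.

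The promoters of Cish and Igfals are shown because each holds the letters of the STAT5 element, TTCNNNGAA (its own reverse complement), although the 2 genes changed by unlike amounts. The Cish stretch runs from 50 bases before the start to 20 bases after it, at chr9:107296609-107296678 on the plus strand, with 2 copies in capitals, from 1 to 9 and from 12 to 20. The Igfals stretch covers the 100 bases before the start of the same build, GRCm38.p6, at chr17:24878131-24878230 on the plus strand, with the copy from −58 to −50 in capitals.
Cish: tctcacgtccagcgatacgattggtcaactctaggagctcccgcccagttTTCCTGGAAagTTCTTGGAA
Igfals: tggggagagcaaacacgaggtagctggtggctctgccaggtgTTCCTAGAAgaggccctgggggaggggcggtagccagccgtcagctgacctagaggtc
The element was found in 3 of the 13 member windows, which came from 9 of the 10 genes, and in 8.30% of all windows. A second Igfals window held another copy from −236 to −228. The forkhead core GTAAACA was found in 1 member window, of Igfals on the reverse strand from −242 to −236, and in 3.65% of all windows. The letters of the TATA box, TATAAA, were found in 2 member windows and in 13.6% of all. The match of Igfbp4 lay from −28 to −23, and that of Ghr on the reverse strand from −188 to −183.

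With the brightest probe of each gene, no other gene of the IGF system with a value came near the change of Igfbp1. Pappa2, at −0.06 with that probe, was at 2.19 with the mean of its 2 probes, where it was called higher. Its dimmer probe was thus higher by more than 2.19. That probe is not given singly, and whether it stood well above background on both arrays was not examined. Of 16 listed, 14 were measured, 12 had a value, 0 were at least 2-fold higher and 2 were lower, and their median change was −0.13. Both of those lower were dim: Stc2, an inhibitor of the IGFBP protease, went from a normalized signal of 20.3 to 8.16 (−1.31), and Irs2, an adaptor of the insulin and IGF1 receptors, from 148.8 to 70.5 (−1.08). With the normexp background correction they were at −0.09 and −0.42, so neither call held. Igfbp5, the other partner of the ternary complex, had a change of 0.76 and Igfbp6 one of 0.13. The receptors Igf1r and Igf2r were at −0.23 and 0.24. Igf2, which is silenced in adult mouse liver, was well above background on 1 array only, at processed signals of 10.8 and 12.8, and has no change here.

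Of 16 further genes of signalling from the growth hormone receptor, 1 was at least 2-fold higher and 0 were lower, with a median of 0.03. The higher gene was Prlr, the prolactin receptor, at 1.03, and its call was lost with the mean of its probes (0.72). Stat5b, the main STAT5 of liver, went from 8538 to 5123 (−0.74), whereas Stat5a went from 579.7 to 755.6 (0.38) and Jak2 was at −0.33. The suppressors Socs3 (1825 to 951, a change of −0.94) and Socs1 (88.9 to 45.9, a change of −0.95) lay just inside 2-fold below. Socs1 was dim, at −0.29 with the normexp correction and at −1.07 with scaling by the 75th percentile.

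Genes known to follow the sex-specific pattern of growth hormone pulses gave no common direction. Of 14 male-biased genes measured, 3 were at least 2-fold higher and 1 lower, with a median of −0.07. Hsd3b5, a steroid dehydrogenase of male liver, went from 89.2 to 519.7 (2.54), Cyp2u1 was at 1.79 and the peroxisomal hydrolase Nudt7 at 1.18, while Elovl3, a fatty acid elongase, went from 3141 to 282.6 (−3.47). Bcl6, a repressor of female-biased genes, was at 0.43. The Mup genes of this list belong to a family of like sequences, and whether their probes also read other members of it was not tested. Of 13 female-biased genes measured, 12 had a value, 2 were higher and 1 lower, with a median of −0.05: Cux2, an activator of female-biased genes, went from 20.1 to 156.7 (2.96), Acot3 was at 1.202 and Fmo2 at −1.21. None of these 3 passed 2-fold with the normexp correction, where Cux2 was at 0.98. The call of Acot3 was also lost with the mean of its 2 probes (0.38).

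Among genes known to regulate Igfbp1 in liver, 10 of 11 were measured, 0 were at least 2-fold higher and 3 were lower, with a median of −0.45. Ppargc1a, a coactivator induced by fasting, went from 1400 to 146.1 (−3.26). Foxo1, the insulin-repressed factor that binds the insulin response element, went from 5967 to 2738 (−1.12), and Fgf21, a fasting hormone, from 175.0 to 87.3 (−1.003). With the arrays scaled by their medians only Ppargc1a remained past 2-fold below, with Foxo1 at −0.92 and Fgf21 at −0.99. With the normexp correction Fgf21 was at −0.43, while Foxo1 was at −1.16. Of 9 further genes that insulin represses or FoxO factors raise, all 9 were below 0 (8 with the arrays scaled by their medians) and 5 were at least 2-fold lower, with a median of −1.07. These 5 were the gluconeogenic genes Pck1 (−2.95) and G6pc (−1.77), the pyruvate dehydrogenase kinase Pdk4 (−2.36), Irs2 and Sesn1 (−1.07). Sesn1 was named after its value was seen. Irs2, like Insr of the same 9, also stands in the list of the IGF system. Over all genes measured 4.62% were at least 2-fold lower. This list and that of the regulators of Igfbp1 were chosen with earlier results of these data known.

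**Figure D5:**
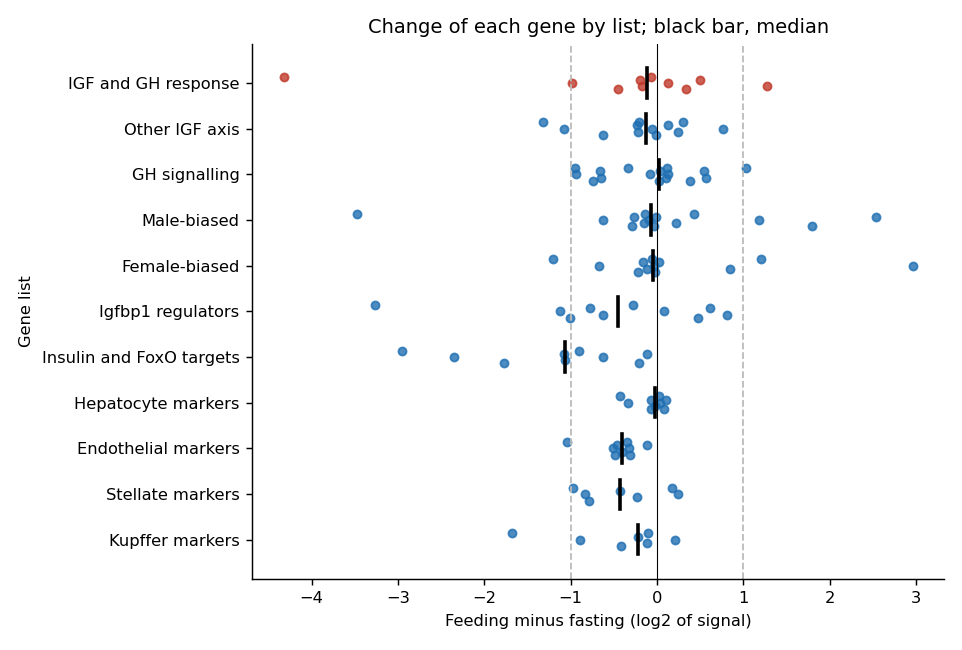
Change upon feeding (log2 of normalized signal, feeding minus fasting) of each gene with a value, by list, with a black bar at the median and dashed lines at 2-fold. The median of the insulin and FoxO targets lies lowest, at −1.07, followed by those of the regulators of Igfbp1 at −0.45, the stellate markers at −0.43 and the endothelial markers at −0.40.

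Markers of the cell types of liver were read to see what the pools held. The 9 hepatocyte markers measured had a median of −0.02 and none passed 2-fold, with Alb, the brightest, at 151264 upon fasting and 144433 upon feeding. All 9 endothelial markers were below 0 (8 with the arrays scaled by their medians), with a median of −0.40, changes from −1.04 to −0.11 and a summed normalized signal of 45986 upon fasting and 35108 upon feeding. Their brightest was Clec4g at −0.48, and Pecam1, named after its value was seen, was the 1 past 2-fold, at −1.04, a call that was lost with scaling by the medians (−0.98) and with the normexp correction (−0.79). Of 8 stellate cell markers 7 had a value, 5 were below 0 and 0 passed 2-fold, with a median of −0.43 and a sum of 59605 upon fasting and 43415 upon feeding, and Dcn, their brightest, was at −0.24. Of 7 Kupffer cell markers 6 were below 0 (4 with the arrays scaled by their medians) and 1 passed 2-fold, C1qa at −1.68, also named after its value was seen. Their median was −0.22 and their sum went from 50049 to 39193, with Cd5l, the brightest, at −0.12. Each of these sums weighs bright probes most, since probes bind with different strength, and is no measure of cell content.

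The medians of the endothelial, stellate and Kupffer cell markers were below 0, as was the change of Igfbp7 (−0.46), while that of Igfbp3 was above it (0.50). Both genes are made largely outside hepatocytes, and the part of these cell types in the 2 values was not tested. In bulk liver, fewer cells of a type and less RNA per cell cannot be told apart. The markers of cholangiocytes (5 measured, median 0.08), blood cells (9 measured, median 0.01) and pancreas (5 measured, median 0.07) each had 1 gene at least 2-fold higher (Sox9, Ms4a1 and Prss2, named after their values were seen) and 0 lower. With the normexp correction Ms4a1 was at 0.21 and Prss2, which was well above background on the feeding array only, at 0.42, so these 2 calls were lost.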

How the data were processed

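Liver RNA of 2 groups, fasting and feeding, was analysed, with 1 array per group and 3 mice pooled in each. The authors used Cy3 as the single dye and Whole Mouse Genome 4x44K arrays, and read the scans with Feature Extraction 11.0.1.1. Each deposited intensity belongs to 1 spot and is not normalized between arrays. The processed signal, which has the background subtracted, is the basis of the values here, and the median signal and local background served for 1 alternative. The deposited value table matched the mean local background of 44397 of 44397 spots within a relative difference of 1e-06, and was not used.

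Each array held 44397 spots, of which 1377 were controls and 141 (fasting) and 149 (feeding) were outliers. Spots well above background made up 63.1% upon fasting and 72.3% upon feeding, and 0 were saturated. Both arrays were hybridised on the same slide. The number of arrays limits the precision.

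Processed signals were put on the log2 scale, control and outlier spots were dropped, spots of a probe were averaged, and both arrays were quantile normalized. Probes were named by transcript identifier from the RefSeq table of GRCm38.p6, which named 27218 of 39402 probes (69.1%). The array design names an older build, so gene coordinates are not given, and promoter windows (250 bases before to 50 after the start) carry the build of the RefSeq table. A gene was represented by its brightest probe. A change was set as a bound where 1 of the arrays did not lift the probe well above background (1831 genes, of which 1147 had no value). Genes were called at 2-fold, after the methods of the study. With 1 array per group no test was possible, and changes were set beside the SD between replicate spots and the scanner error. The procedure was checked on simulated data. Their noise was that of replicate spots, so the check leaves out the spread between mice.

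Named were the 10 members with every probe, the main IGF and growth hormone signalling genes by role, at most 4 genes past 2-fold in each other list, the brightest marker of each main cell type and the 4 genes nearest Igfbp1 in change. The members and the lists were chosen with earlier results of these data known. The lists were other IGF genes, growth hormone signalling, male-biased and female-biased genes, regulators of Igfbp1, insulin and FoxO targets, and markers of hepatocytes, endothelial, stellate and Kupffer cells, cholangiocytes, blood and pancreas. As alternatives, the arrays were scaled by their medians or 75th percentiles, the normexp correction (offset 50, limma 3.58.1, R 4.3.3) was applied to the median signal, all probes of a gene were averaged, the filter on dim probes was tightened or dropped, and thresholds of 1.5-fold and 3-fold were used. Python 3.11.15 with numpy 2.4.6 and pandas 2.3.3 was used otherwise. A result for 1 gene of these lists is not reported here.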

Additional observations from a re-analysis of the deposited data

How the results depend on the processing

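No paired analysis was possible because each group had 1 array. Of the results recomputed, 145 moved by less than the error on the array or by at most 1.5 times in a count. Another 34 moved by more and 0 reversed a call. The cause of a move was not tested unless the setting names it. Part of the 145 could not move. All 17 member probes were well above background on both arrays, so the filter on dim probes left member values unchanged. Averaging of probes left the 6 members with 1 probe unchanged. With the arrays scaled by their medians the changes were 0.27 for Igf1, −4.18 for Igfbp1, 0.018 for Igfbp2, 0.032 for Igfbp4, 0.13 for Ghr and 0.54 for Cish, and the regulators of Igfbp1 had 1 gene higher and 1 lower; this setting also raised the share of calls that were higher from 41.5% to 52.5% over all genes (717 higher and 649 lower). Scaling by the 75th percentile gave 1 growth hormone signalling gene lower (Socs1). The normexp correction gave 1.07 for Igfals and −0.80 for Socs2, left 0 of the IGF genes lower and 0 of the female-biased genes higher or lower, left 3 of the insulin and FoxO targets lower, and called 215 genes higher and 312 lower of all, against 537 and 756. The mean of a gene's probes gave −0.80 for Socs2, with 1 IGF gene (Pappa2), 0 growth hormone signalling genes and 1 female-biased gene higher. The Socs2 probe spotted 10 times, an alternative chosen after seeing the data, gave −0.79.

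At 1.5-fold, 2 of the 10 members were lower (Igfbp1 and Socs2), 1 IGF gene was higher, 5 growth hormone signalling genes, 2 male-biased and 2 female-biased genes were lower, and the regulators of Igfbp1 had 2 higher and 5 lower; over all genes 1714 were higher and 1737 lower. At 3-fold, 0 members were higher and Igfbp1 was the 1 lower, 0 IGF genes were lower, 0 growth hormone signalling genes were higher, 1 female-biased gene was higher and 0 lower, 1 regulator of Igfbp1 and 3 insulin and FoxO targets were lower, and 158 of all genes were higher and 311 lower. With no filter 1177 were higher and 1189 lower. Signal over background limits the dim genes: replicate spots in the dimmest of 3 equal groups of genes differed with an SD of 0.44.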
